A study of Sus scrofa with 40 samples.

Results

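The step examined was the passage of the porcine renal cortex (C) from warm ischemia alone into 6 h of cold storage. Of 40 arrays, 10 were compared: the 5 cortex arrays of the group with warm ischemia followed by 6 h of cold storage (WI+CS6h-C) and the 5 cortex arrays of the group with warm ischemia alone (WI-C), chosen by their labelled treatment and tissue. All kidneys came from Large White pigs, 3 months old and brothers of each other, and no transgene or altered allele is named for any group. Kidneys of both groups were clamped, removed and kept clamped for 60 min at 37 °C. Those of the WI group were sampled and frozen at that point, whereas those of the WI+CS6h group were first flushed with cold University of Wisconsin (UW) solution and held for 6 h at 4 °C. The groups were different kidneys, 5 in each, so a difference between the 2 sets of kidneys and an effect of flush and storage cannot be told apart. The stored kidneys were sampled again at 24 h (WI+CS24h-C), and control kidneys (Ctl-C) and the corticomedullary junction (CMJ) were profiled too. The model had no reperfusion, so no blood returned to the tissue after the clamp.

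The renal cortex is dominated by proximal tubule cells, which draw most of their energy from the oxidation of fatty acids in mitochondria and peroxisomes, under the control of the nuclear receptor PPARA. Clamping cuts off oxygen and substrate, and cooling then slows enzymes, transcription and RNA decay without stopping them. In bulk tissue a lower signal can mean fewer cells of a type or less RNA per cell, and these cannot be told apart.

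The share of spots well above background was 64.5% ± 1.68 on the WI-C arrays and 62.5% ± 5.57 on the WI+CS6h-C arrays (SD, n = 5), with the wider spread in the stored kidneys and no difference between the means past the threshold (exact permutation test over 252 splits, two-sided, p = 0.468). Within each group and between groups, arrays correlated at r of 0.961 to 0.993 across spots. Markers of proximal tubule and podocytes were examined in both groups. No sums were made for the junction, so they do not test the tissue label. All 32 measured proximal tubule markers were above background on some array, and their summed linear signal was 287216 to 327926 on WI-C arrays and 270877 to 357211 on WI+CS6h-C arrays. Podocyte markers summed to 3361 to 3713 and 3467 to 4287 in the same order. The ranges of both lists overlapped between the groups. The arrays lay on 10 slides scanned on 2 days, and 2 slides held an array of each group.

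Each value below is a log2 signal after quantile normalization, and a difference is WI+CS6h-C minus WI-C on that scale with the standard error of the limma fit. Each adjusted p is limma's, corrected by the Benjamini-Hochberg method over all genes tested. A gene was called at an adjusted p under 0.05 with a difference of at least 0.5 in size. Arrays of a group are numbered 1 to 5 by their labels, and the number pairs no arrays between the 2 groups.

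Because the readout is the binding of labelled RNA to 60-base probes, the probes behind FCN2, HADHA, AQP3, the largest rise (FUT2) and a fall to background (CYP2C42) are given by their first 30 bases, 5′ to 3′, as deposited. They are shown since probes of the same gene did not always give the same size of change.
FCN2 probe 1: tcaggaggacaagagtgaccgttactccag
FCN2 probe 2: ttgtgcagtgctgtaccagggagcctggtg
HADHA probe 1: agaatcggaatgtgaattctgacacggaga
HADHA probe 2: atcaccactgaaaaaacctctaaggactca
HADHA probe 3: atagcaacaaaagataagaaaacagtatta
AQP3 probe 1: tttttgggctgtattatgatgcaatctggg
AQP3 probe 2: tgacgaggagaatgtgaagctgtcccaagt
FUT2 probe 1: cagttttgacaagatagccgtattggctag
FUT2 probe 2: cagctacaagcaacaaagtcccaactaact
FUT2 probe 3: aggatcccctggcagaactaccacctgaac
CYP2C42 probe: gtacagggtagttcctgtctgtaagatcta

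Of the 35939 genes tested, 692 were called (1.93%), with 361 higher (1.00%) and 331 lower (0.921%) after storage. The called genes were moderate in size, with a median difference of 0.76 for those higher and -0.99 for those lower, against a median of 0.03 over all genes. A difference of at least 1 in size was seen for 267 of them, of which 104 were higher and 163 lower. Among the 8851 identifiers with a gene symbol, 244 were called (2.76%), 132 higher (1.49%) and 112 lower (1.27%). The arrays of the groups did not overlap for 1174 of all genes tested (3.27%), and 522 genes (1.45% of those tested) were both called and without overlap. Of the 71 called identifiers named below by rule, all kept their direction within each scan day, 71 within slide 4 and 70 within slide 9. They were chosen on these same arrays, so the kept direction is no separate support. The split of the calls followed the scaling. Quantile normalization by group, which lifted the median of all genes to 0.17, called 1923 genes with 69.9% higher, and normexp background correction called 143 with 35.7% higher, beside 52.2% higher among the 692. Under normexp the differences of 39 of the 71 named identifiers were smaller by more than 1.5 times and 30 lost their call, 23 of them by size alone with an adjusted p still under 0.05, while none changed direction. The list counts below, in which a gene stands by its brightest identifier, stand beside the 2.76% called among identifiers with a symbol. Genes of the lists called by a dimmer identifier alone were ACOX2, ARG2, MTHFD1, WNK1, NES and CEBPG. With slide as a fixed block 7 genes were called, of the named ones only FUT2, and with only the 2 groups in the fit 149 were called, 22 of the 71 named ones among them. The number of calls depended on single kidneys. Leaving out WI-C 3 left 381 calls, leaving out WI+CS6h-C 1 left 384, WI-C 4 left 407 and WI-C 5 left 455, while leaving out WI+CS6h-C 4 raised the number to 1195.

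**Figure D1:**
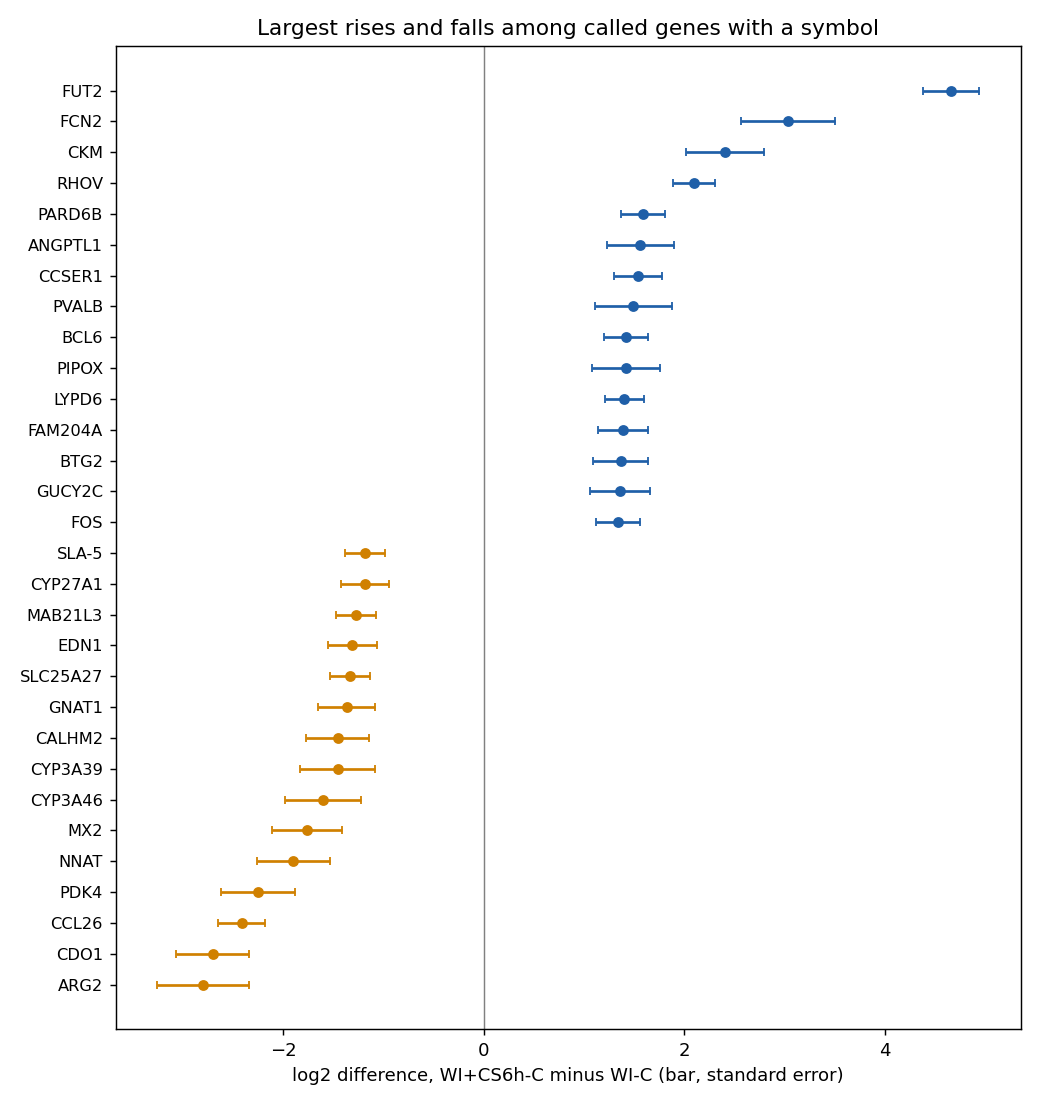
The 15 largest rises and the 15 largest falls among called genes with a symbol whose arrays did not overlap between the groups and whose higher group was well above background on all 5 arrays. The x axis is the log2 difference WI+CS6h-C minus WI-C, each point is a gene and each bar its standard error; rises run from 1.34 for FOS to 4.66 for FUT2, falls from -1.18 for SLA-5 to -2.80 for ARG2.

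The largest rise was that of FUT2 (NM_214069), the fucosyltransferase that builds the H blood group antigen on epithelial surfaces. FUT2 signals were 1.39, 1.42, 1.52, 1.60 and 1.15 on WI-C arrays 1 to 5 and 5.70, 5.03, 6.67, 6.38 and 6.61 on WI+CS6h-C arrays 1 to 5. The groups did not overlap, with a fitted difference of 4.66 (SE 0.28, adjusted p = 5.66e-08). Its 3 probes differed in size. Probes 1 and 2 were not well above background on any WI-C array, and were at least 10.7-fold and at least 17.1-fold higher after storage, where the WI-C level is the lowest signal well above background on each array. Probe 3 was well above background on all 10 arrays and was 4.42-fold higher, at 3.67 ± 0.38 and 5.82 ± 0.67 (SD, n = 5). The fitted 4.66 averages all 3 probes and so includes WI-C values that were not measured above background, and with normexp background correction it was 0.63 (adjusted p = 0.00147), and it was 1.77 in the deposited table. Within scan days 1 and 2 the FUT2 difference was 4.54 and 4.82. FUT2 was called in all 13 alternatives counted per gene, which kept all 10 compared arrays, and in all 10 fits that left out an array.

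FCN2 (NM_213868), a ficolin that binds sugars on microbes and starts the lectin pathway of complement, rose next. FCN2 signals were 4.28, 3.32, 2.88, 4.29 and 3.05 in WI-C and 6.03, 5.32, 6.52, 6.55 and 8.57 in WI+CS6h-C. The groups did not overlap, for a difference of 3.03 (SE 0.47, adjusted p = 0.00217). The value of WI+CS6h-C 5 rests on the brighter probe 1 alone, because the scanner marked its probe 2 spot as an outlier. With outlier spots kept that array measured 7.21, and the difference was 2.76 (SE 0.36, adjusted p = 0.000756). Without that array it was 2.54. Probe 1, well above background on all arrays, differed by 1.97 (5.40 ± 0.35 and 7.37 ± 0.77), whereas probe 2, well above background on 2 of 5 WI-C arrays, differed by 3.41. FCN2 was the only called gene of the 25 granulocyte and monocyte markers measured. The summed signal of that list was 2563 to 3537 in WI-C and 2662 to 5280 in WI+CS6h-C, with MPO, PMAP-23 and TREM1 not well above background on any of the 10 arrays. Within scan days 1 and 2 the FCN2 difference was 2.47 and 3.62, and the call was lost with normexp background correction (0.66, adjusted p = 0.0593), with slide as a fixed block and with only the 2 groups in the fit.

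CKM, the muscle-type creatine kinase, rose on both of its identifiers, but not on all probes. On AK398294 the signals were 4.67, 4.88, 4.50, 4.75 and 4.72 in WI-C and 7.84, 7.54, 6.45, 6.06 and 7.66 in WI+CS6h-C, a difference of 2.41 (SE 0.39, adjusted p = 0.00269) without overlap. On NM_001129949, read by 10 probes, the difference was 1.23 (SE 0.27, adjusted p = 0.0218). The brightest of these probes differed by -0.01 and the other 9 by 0.19 to 2.29. The second call was lost without WI-C 3, WI-C 4, WI+CS6h-C 1 or WI+CS6h-C 5, with adjusted p of 0.0535, 0.0571, 0.0676 and 0.0517. Probes of the 2 identifiers share a run of up to 51 bases, so they are not separate readings. CKM was the only called gene of 21 muscle and sarcomere genes measured, and MYH2, MYH4, MB and CSRP3 were not well above background on any of the 10 arrays. The summed signal of that list was 737 to 1121 in WI-C and 986 to 1381 in WI+CS6h-C.

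A pair of regulators of the epithelial cytoskeleton followed. RHOV (NM_001244417), a small GTPase, had signals of 2.58, 2.58, 3.00, 2.76 and 2.41 in WI-C and 4.96, 4.31, 4.97, 4.71 and 4.88 in WI+CS6h-C, a difference of 2.10 (SE 0.21, adjusted p = 5.92e-05). Its probe 1, well above background on all 10 arrays, was 4.47-fold higher after storage (5.02 ± 0.32 and 7.18 ± 0.26, SD, n = 5). Probe 2 was well above background on 1 of 5 WI-C arrays and on all stored kidneys, and probe 3 on none of the WI-C arrays and on 1 of 5 stored kidneys, too few to give its size. With normexp background correction RHOV differed by 0.35 (adjusted p = 0.000181), under the size limit, and in the deposited table by 0.61. PARD6B (NM_001130532), a scaffold of the apical polarity complex, had signals of 9.15, 8.71, 8.72, 8.85 and 8.77 in WI-C and 10.99, 10.46, 10.63, 10.06 and 9.99 in WI+CS6h-C. The PARD6B difference was 1.59 (SE 0.22, adjusted p = 0.000872), whereas a second identifier of the gene gave 0.44 without a call. Neither RHOV nor the first PARD6B identifier had overlapping groups, a condition of their choice, and both stayed called whichever array was left out. The RHOV call was lost with normexp background correction and with slide as a fixed block.

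Among the other large rises, ANGPTL1, a secreted angiopoietin-like protein, differed by 1.56, CCSER1 by 1.54, PVALB, a calcium-binding protein of the distal convoluted tubule and the only call by the brightest identifier among 19 genes of the loop of Henle and distal tubule, by 1.49, PIPOX, a peroxisomal oxidase of pipecolate and sarcosine, by 1.42, LYPD6 by 1.40, FAM204A by 1.39 and GUCY2C, the membrane guanylate cyclase that binds guanylin, by 1.36. Of these, CCSER1, LYPD6 and FAM204A were called in all 10 fits with an array left out. ANGPTL1 lost its call without WI-C 3 (adjusted p = 0.0519) or WI+CS6h-C 1 (adjusted p = 0.0534). GUCY2C lost it without WI-C 5, WI+CS6h-C 1 or WI+CS6h-C 5 (adjusted p of 0.0531, 0.0586 and 0.0517). PIPOX lost it in 7 of the 10 fits and PVALB in 8, with adjusted p of up to 0.102 and 0.134 without WI+CS6h-C 1.

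**Figure D2:**
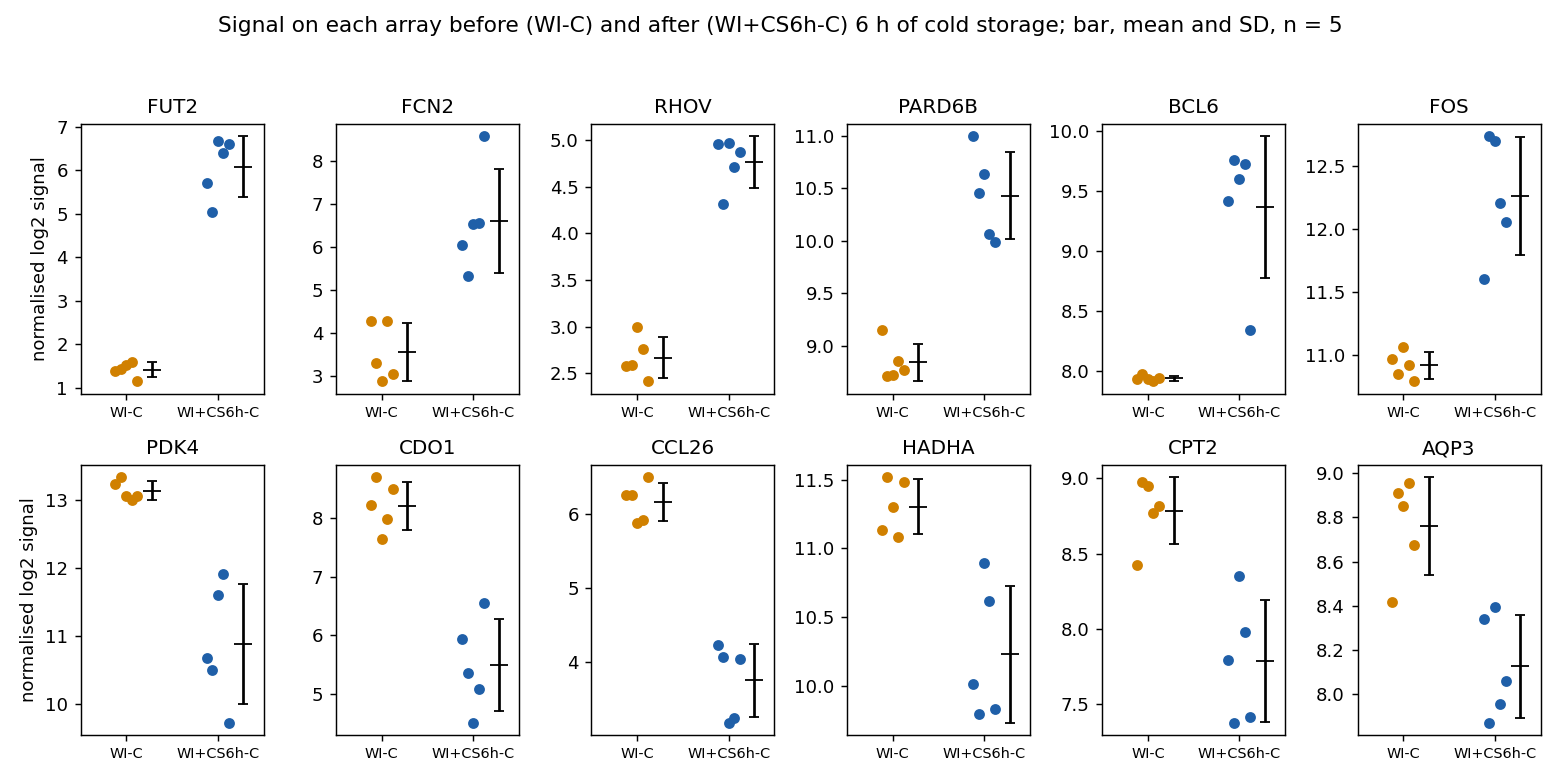
Normalised log2 signal of 12 genes on each of the 5 WI-C arrays (orange) and the 5 WI+CS6h-C arrays (blue). Points are arrays and black bars the mean and SD; the groups do not overlap for any of the 12, and the stored kidneys spread more widely for PDK4, HADHA and BCL6. Lack of overlap was a condition of choice for those among the largest rises and falls.

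Immediate early genes, which are transcribed within minutes of a stimulus without new protein, made up the list with the most calls. Of 35 measured, 7 were higher, 1 lower and 27 not called, and the median of the list was 0.34 beside 0.03 over all genes. FOS (ENSSSCT00000002650), a subunit of the AP-1 transcription factor, had signals of 10.97, 10.85, 11.06, 10.92 and 10.79 in WI-C and 11.61, 12.74, 12.70, 12.21 and 12.06 in WI+CS6h-C. The FOS difference was 1.34 (SE 0.22, adjusted p = 0.00311), above the 1.17 to 1.30 of its 3 probes because WI+CS6h-C 3 lacks the outlier spot of the dimmest probe. With that spot kept the difference was 1.27 (adjusted p = 0.00326). A second FOS identifier, whose probes share runs of at most 7 bases with these, gave 1.04 with a call. EGR1 (ENSSSCT00000015660), a zinc finger factor of the same class, had signals of 4.17, 4.24, 4.76, 4.44 and 4.65 in WI-C and 6.06, 5.51, 5.68, 5.59 and 5.74 in WI+CS6h-C. The EGR1 difference was 1.27 (SE 0.24, adjusted p = 0.00856), and with normexp background correction it was 0.28 (adjusted p = 0.00104), under the size limit. Both genes were without overlap between the groups and were called in every fit with an array left out.

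BCL6 (ENSSSCT00000012922), a transcriptional repressor, was nearly constant in WI-C, with signals of 7.94, 7.98, 7.94, 7.92 and 7.94, and measured 9.41, 9.75, 9.59, 9.72 and 8.34 in WI+CS6h-C. BTG2 (NM_001097505), an antiproliferative gene induced by p53, had 9.63, 9.23, 9.35, 9.56 and 9.49 in WI-C and 10.83, 11.07, 11.24, 11.18 and 9.79 in WI+CS6h-C. In both genes WI+CS6h-C 5 lay well below the other stored kidneys, yet above every WI-C array. The differences were 1.42 (SE 0.22, adjusted p = 0.00222) for BCL6 and 1.37 (SE 0.27, adjusted p = 0.0131) for BTG2, the latter being the only call among 30 genes of p53, DNA damage and cell death. KLF4, a zinc finger factor also found in endothelium, rose by 0.75 (adjusted p = 0.0153) with all 7 probes between 0.69 and 0.84. NR4A2, an orphan nuclear receptor, rose by 1.82 on NM_001190276 with overlapping groups, while its other identifier, AK346348, well above background on 3 of the 10 arrays, gave 0.47 without a call. IER3 rose by 0.57 (adjusted p = 0.0464). These last 2 genes were added after their values were seen.

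The member of the early list that fell was CEBPD (ENSSSCT00000006875), a C/EBP factor of the acute phase response, by 0.68 (SE 0.13, adjusted p = 0.00869). It went the other way from CEBPA (TC618296), the C/EBP factor of metabolic tissues, which rose by 0.89 (SE 0.12, adjusted p = 0.00105). CEBPA signals were 9.71, 9.58, 9.56, 9.94 and 9.78 in WI-C and 10.76, 10.63, 10.74, 10.59 and 10.28 in WI+CS6h-C, without overlap, and its other 2 identifiers gave 0.60 with a call and 0.34 without. KLF15 (NM_001134349), a regulator of amino acid and lipid use, had signals of 12.11, 12.64, 12.45, 12.21 and 12.16 in WI-C and 11.26, 11.28, 11.47, 11.64 and 11.58 in WI+CS6h-C, and fell by 0.87 (SE 0.12, adjusted p = 0.00105). In the list of 32 transcription factors of kidney and metabolism, 2 were called higher, 3 lower and 27 not called. Of the genes in this paragraph, CEBPD lost its call with 75th percentile scaling, with quantile normalization by group and with only the 2 groups in the fit.

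Enzymes of fatty acid oxidation were lower where called. Of 26 measured, 3 fell, none rose and 23 were not called, and the list's median was -0.29, with 9 differences above 0. HADHA (NM_213962), the alpha subunit of the mitochondrial trifunctional protein, had signals of 11.13, 11.52, 11.30, 11.08 and 11.49 in WI-C and 10.01, 9.79, 10.90, 10.62 and 9.83 in WI+CS6h-C. The stored kidneys 3 and 4 lay closest to the WI-C arrays, and the groups did not overlap. The difference was -1.07 (SE 0.23, adjusted p = 0.0196), and it missed the threshold without WI-C 5 (adjusted p = 0.0536) or WI+CS6h-C 1 (adjusted p = 0.0591). Probes 1 and 2 gave -1.35 and -1.41 without overlap, whereas probe 3, the dimmest, gave -0.47 with overlap. Within slide 4 the difference was -0.47 and within slide 9 it was -1.70, each from 1 array per group.

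CPT2 (NM_001246243), which hands fatty acids from carnitine to coenzyme A inside mitochondria, had signals of 8.42, 8.97, 8.95, 8.77 and 8.82 in WI-C and 7.80, 7.38, 8.35, 7.98 and 7.42 in WI+CS6h-C. CPT2 fell by 1.00 (SE 0.20, adjusted p = 0.014), without overlap and whichever array was left out. HSD17B4, the peroxisomal multifunctional enzyme, fell by 0.69 (SE 0.18, adjusted p = 0.0476) but kept its call in only 2 of the 10 fits with an array left out, with an adjusted p of up to 0.128 without WI+CS6h-C 1. ACOX2, a peroxisomal oxidase, fell by 0.98 (adjusted p = 0.00797) on AK395885, while its brighter identifier gave -0.34 (adjusted p = 0.23) and stands for the gene in the list count.

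Of 20 targets and regulators of PPARA, 3 fell, none rose and 17 were not called, with a median of -0.33 and 7 differences above 0. PDK4 (NM_001159306), the kinase that shuts pyruvate out of the citric acid cycle, was among the brightest genes, with signals of 13.23, 13.33, 13.06, 13.005 and 13.05 in WI-C and 10.68, 10.51, 11.60, 11.92 and 9.73 in WI+CS6h-C. Its difference was -2.25 (SE 0.37, adjusted p = 0.00338), a 4.76-fold fall, and its 9 probes gave -2.44 to -1.98. WI-C arrays differed little from each other (SD 0.14), whereas the stored kidneys spread over more than 2 log2 units (SD 0.88). CYP4A21 (NM_214425), a fatty acid hydroxylase, fell by 0.89 (SE 0.10, adjusted p = 0.000238), but its 4 probes ranged from -1.44 to -0.12, the last being the brightest. That probe lay at 15.75 in WI-C, near the highest value of the deposited table (16), and saturation was not tested. NR1H4, the bile acid receptor FXR, fell by 1.01 (SE 0.21, adjusted p = 0.0153) with overlapping groups. In the list of the citric acid cycle and pyruvate, PDK4 was the sole call among 24 genes.

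None of 17 genes of the respiratory chain and ATP synthase was called (2.76% among all identifiers with a symbol, under 1 gene in a list of this size), with a median of 0.12 and a range of -0.18 to 0.43, and the smallest p belonged to ATP5O (difference 0.38, SE 0.21, adjusted p = 0.423). None of 17 genes of gluconeogenesis and glycolysis was called. PCK1, the rate-limiting enzyme of gluconeogenesis, had 5 probes that ranged from -1.49 to 0.03, with a mean difference of -0.59 (SE 0.21, adjusted p = 0.173). All 5 lay at 15.60 to 16.03 in WI-C, near the highest value of the deposited table (16). Whether saturation limited their differences was not tested. SLC25A27, a mitochondrial uncoupling carrier outside these lists, fell by 1.33 (SE 0.20, adjusted p = 0.00191) without overlap.

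**Figure D3:**
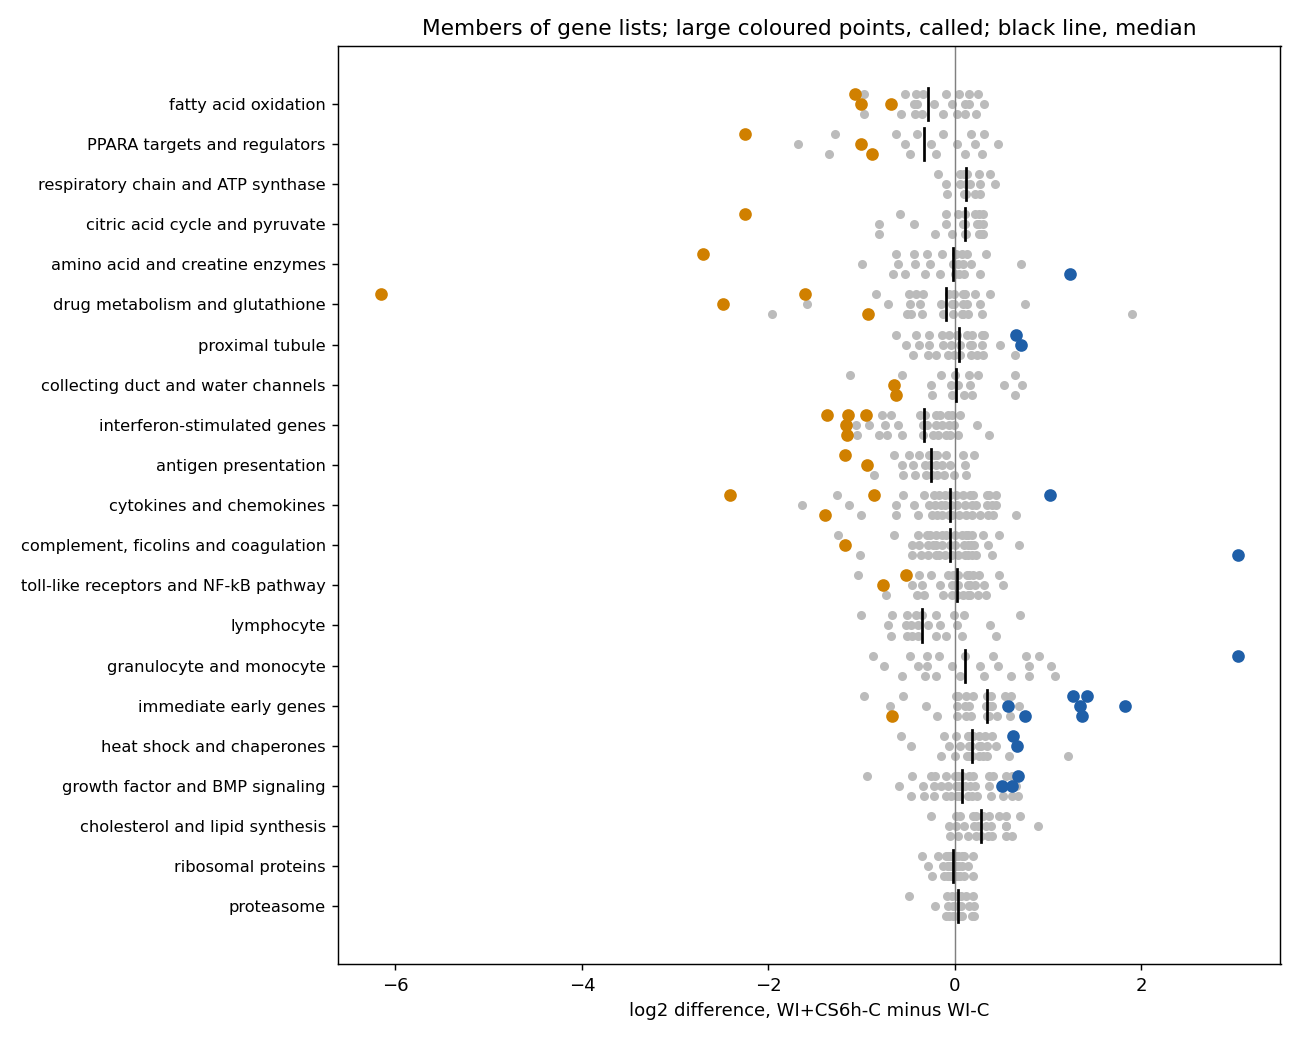
Log2 difference WI+CS6h-C minus WI-C (x axis) of each measured member of 21 gene lists (rows); a gene is shown by its brightest identifier. Large points are called (blue higher, orange lower), grey points not called, and black lines list medians, which run from -0.35 for lymphocyte markers to 0.34 for immediate early genes.

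Large falls were found among enzymes of amino acid and drug metabolism. CDO1 (ENSSSCT00000015537), the dioxygenase that commits cysteine to taurine and sulfate, had signals of 8.21, 8.68, 7.64, 7.98 and 8.48 in WI-C and 5.94, 5.36, 4.52, 5.09 and 6.56 in WI+CS6h-C. The CDO1 difference was -2.70 (SE 0.37, adjusted p = 0.000872), a 6.51-fold fall without overlap. ARG2 (ENSSSCT00000035428), the mitochondrial arginase, had 5.11, 4.88, 5.30, 5.03 and 4.79 in WI-C and 1.21, 1.80, 2.28, 3.79 and 2.04 in WI+CS6h-C, a difference of -2.80 (SE 0.46, adjusted p = 0.00328). A brighter ARG2 identifier gave -0.99 without a call (adjusted p = 0.256), and normexp background correction ended the call of the first. In the list of 27 amino acid and creatine enzymes, by the brightest identifier, CKM was higher, CDO1 lower and 25 were not called.

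Drug metabolism and glutathione genes held 4 falls and no rise among 36 measured, with a median of -0.09. CYP2C42 (NM_001167835), a cytochrome P450, had signals of 7.80, 9.27, 8.22, 2.30 and 8.99 in WI-C and 1.42, 1.34, 0.53, 1.98 and 0.53 in WI+CS6h-C. It was well above background on 4 of 5 WI-C arrays and on none of the stored kidneys, and fell at least 24.7-fold (fitted difference -6.15, SE 0.94, adjusted p = 0.002). WI-C 4 lay closer to the stored kidneys than to the other WI-C arrays, and on slide 4, which holds that array, the difference was -0.31. GSTA2 (NM_213850), a glutathione transferase, had 11.32, 8.71, 10.92, 11.32 and 11.40 in WI-C and 9.18, 8.77, 7.64, 7.42 and 8.21 in WI+CS6h-C, a difference of -2.49 (SE 0.48, adjusted p = 0.00998). Here too 1 kidney of the WI-C group, number 2, fell among the stored ones, and the groups overlapped. GSTA1, named after its value was seen, gave 1.90 without a call (adjusted p = 0.287).

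CYP3A46 and CYP3A39, P450 enzymes with broad substrates, fell by 1.60 (adjusted p = 0.0335) and 1.46 (adjusted p = 0.0476) without overlap. Their probes share runs of at most 7 bases. CYP3A46 kept its call in 3 and CYP3A39 in 1 of the 10 fits with an array left out, with adjusted p of up to 0.0867 without WI-C 3 and 0.121 without WI-C 5. CES1, a carboxylesterase, fell by 0.93 (adjusted p = 0.0401) and kept its call in 2 of these fits (up to 0.1 without WI-C 3). CYP27A1, the sterol 27-hydroxylase, fell by 1.18 (SE 0.24, adjusted p = 0.0132), with -1.24 and -1.13 on its 2 probes, and was called in all 10. The heme oxygenases moved in opposite directions within the list of 21 redox genes. Inducible HMOX1 differed by 0.69 (adjusted p = 0.0489) and constitutive HMOX2 by -0.53 (adjusted p = 0.0306), both with overlapping groups, and they kept the call in 1 and 3 of the 10 fits, with adjusted p of up to 0.136 without WI+CS6h-C 1 and 0.0849 without WI-C 3.

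The calls among interferon-stimulated genes were all falls. Of 36 measured, 5 fell, none rose and 31 were not called, only 4 differences were above 0, and the list's median was -0.33. GBP2 (NM_001128474), a guanylate-binding protein, had signals of 9.25, 9.14, 9.10, 9.34 and 9.27 in WI-C and 7.77, 8.28, 8.11, 8.45 and 7.75 in WI+CS6h-C. The GBP2 difference was -1.15 (SE 0.13, adjusted p = 0.000238), with -1.14 and -1.15 on its 2 probes, and -1.12 and -1.16 within scan days 1 and 2. MX2 (NM_001097416), an antiviral GTPase, had 6.85, 6.31, 6.70, 7.31 and 6.01 in WI-C and 4.66, 5.91, 5.06, 5.93 and 4.76 in WI+CS6h-C, a difference of -1.37 (SE 0.27, adjusted p = 0.0131). All 3 MX2 identifiers fell and were called (-1.37, -1.74 and -1.76), and their probes share runs of at most 6 bases. WI-C 5 was the lowest WI-C array for MX2 and lay just above WI+CS6h-C 4. Within slide 9, from 1 array per group, the MX2 difference was -0.09, and within slide 4 it was -1.38. The call of this MX2 identifier was lost with normexp background correction (-0.42), with slide as a fixed block and with only the 2 groups in the fit.

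The other 3 calls of that list were OAS2, ISG20 and OAS1. OAS2, a synthetase that activates RNase L, fell by 0.96 (adjusted p = 0.0181) with overlap, and lost its call without WI-C 3, WI-C 4 or WI+CS6h-C 1 (adjusted p of 0.0552, 0.056 and 0.0586). Within slide 9 its difference was 0.08, in the opposite direction. ISG20, an exonuclease, fell by 1.17 (adjusted p = 0.0413) and kept its call in 1 of 10 fits with an array left out (up to 0.105 without WI-C 4). OAS1, added after its value was seen, fell by 1.16 (adjusted p = 0.046) with overlap on AK230683 while NM_214303 gave -1.08 without a call (adjusted p = 0.251).

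In the antigen presentation list 2 of 28 fell and none rose, with 4 differences above 0 and a median of -0.25. SLA-DOA (NM_001185143), a chain of the class II chaperone, had signals of 8.46, 8.75, 8.72, 8.59 and 8.66 in WI-C and 7.84, 7.72, 7.84, 7.57 and 7.48 in WI+CS6h-C, a difference of -0.94 (SE 0.12, adjusted p = 0.000773). SLA-5 (NM_001114056), a class I heavy chain, had 10.36, 11.36, 11.23, 10.92 and 10.61 in WI-C and 9.72, 9.74, 10.03, 9.79 and 9.28 in WI+CS6h-C, a difference of -1.18 (SE 0.20, adjusted p = 0.00388). Neither overlapped. The dimmer SLA-5 probe gave -1.79 and the brighter -0.58, and by the brighter alone the gene was not called. Class I genes are close relatives, and a probe may read more than 1 of them. Of 25 lymphocyte markers none was called, with a median of -0.35, and their summed signal was 3377 to 4151 in WI-C and 1516 to 3748 in WI+CS6h-C. Its part in the falls of this list was not tested.

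Of 49 cytokines and chemokines, 3 fell, 1 rose and 45 were not called, with a median of -0.05 and 22 differences above 0. CCL26 (NM_001078665), the eosinophil attractant eotaxin-3, had signals of 6.27, 6.27, 5.89, 5.92 and 6.50 in WI-C and 4.23, 4.07, 3.18, 3.25 and 4.04 in WI+CS6h-C. The CCL26 difference was -2.41 (SE 0.24, adjusted p = 4.74e-05), a 5.33-fold fall without overlap, which was -0.54 on the log2 scale with normexp background correction. CXCL10, an interferon-induced attractant of T cells, fell by 1.39 (SE 0.34, adjusted p = 0.0354) with WI-C 3 far below the other WI-C arrays, and kept its call in 2 of the 10 fits with an array left out (up to 0.0892 without WI+CS6h-C 3). TNFSF10, the death ligand TRAIL, fell by 0.86 (SE 0.17, adjusted p = 0.00998) in all 10 fits. CCL2 (NM_214214), the monocyte attractant, rose from 8.22, 8.15, 7.59, 8.37 and 8.05 in WI-C to 8.82, 9.61, 9.29, 8.72 and 9.04 in WI+CS6h-C, a difference of 1.02 (SE 0.22, adjusted p = 0.0196). CCL2 lost its call without WI-C 3 (adjusted p = 0.0656) or WI+CS6h-C 3 (adjusted p = 0.052).

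Complement showed FCN2 higher and C8G lower among 45 measured genes. C8G (NM_001097452), the gamma chain of the C8 component, fell by 1.18 (SE 0.23, adjusted p = 0.0122), and its second identifier by 0.83 (adjusted p = 0.0408), both without overlap. In the toll-like receptor and NF-kB list, 2 of 35 fell. ZFAND5, a zinc finger protein of ubiquitin signaling, fell by 0.78 (SE 0.13, adjusted p = 0.00484) with all 15 probes between -0.96 and -0.59. NFKB2, a subunit of the non-canonical pathway, fell by 0.52 (adjusted p = 0.0408) and kept its call in 4 of the 10 fits (up to 0.118 without WI+CS6h-C 1).

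Transporters and channels of the tubule came next. Of 32 proximal tubule genes 2 rose, both carriers of organic solutes, and 30 were not called. ABCC2 (XM_001929359), the apical efflux pump MRP2, had signals of 11.09, 10.97, 10.63, 10.98 and 10.98 in WI-C and 11.78, 11.43, 11.87, 11.60 and 11.54 in WI+CS6h-C, a difference of 0.71 (SE 0.10, adjusted p = 0.00151), while its second identifier gave 0.38 and no call. SLC22A2 (NM_213902), the basolateral cation carrier OCT2, rose by 0.66 (SE 0.12, adjusted p = 0.00553), and its 3 probes gave 0.80, 0.90 and 0.27. AQP3 (NM_001110172), the basolateral water and glycerol channel of the collecting duct, had 8.42, 8.91, 8.85, 8.95 and 8.67 in WI-C and 8.34, 7.87, 8.40, 7.96 and 8.06 in WI+CS6h-C. The AQP3 groups were separated only by the narrow gap between 8.42 on WI-C 1 and 8.40 on WI+CS6h-C 3, and the difference was -0.63 (SE 0.15, adjusted p = 0.0344). Probe 1 gave -0.60 with overlap and probe 2 gave -0.67 without.

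The AQP3 call was among the weakest. It was kept in 3 of the 10 fits with an array left out, with an adjusted p of up to 0.0925 without WI-C 4. The call was lost under 6 of the 13 alternatives, 75th percentile scaling, the replicate block and the fit of only the 2 groups among them. In the list of 20 collecting duct and water channel genes, AQP3 and AQP9 were called lower and none higher. The AQP9 difference of -0.65 (adjusted p = 0.0353) averages 2 probes. Probe 1, well above background on 5 WI-C arrays and 3 stored kidneys, gave -0.11 with overlap, whereas probe 2, well above background on 1 WI-C array and no stored kidney, gives no measured size. The AQP9 call was lost with normexp background correction (-0.03). Collecting duct markers summed to 13443 to 16323 in WI-C and 14205 to 15640 in WI+CS6h-C, overlapping ranges. ATP2B1, the plasma membrane calcium pump, rose by 0.57 (adjusted p = 0.0371, with 1 of its 5 probes left out as an outlier on 8 of the 10 arrays, and 0.65 with it kept) and was the only call among 18 ion pump genes, kept in 3 of the 10 fits (up to 0.0969 without WI-C 3). None of 8 osmotic stress genes was called, with HSPA4L nearest at 0.48 (adjusted p = 0.109).

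Among 19 endothelial genes, EDN1, the vasoconstrictor endothelin-1, fell and KLF4 rose. EDN1 (NM_213882) had signals of 3.82, 3.83, 3.50, 3.46 and 4.13 in WI-C and 2.59, 1.66, 2.40, 2.45 and 3.07 in WI+CS6h-C, where 1 of the 5 arrays was well above background. Its difference was -1.31 (SE 0.24, adjusted p = 0.00779), without overlap. The call was lost with normexp background correction, where the difference was -0.08, in the deposited table, with slide as a fixed block and with only the 2 groups in the fit. Endothelial markers summed to 8839 to 11161 in WI-C and 8765 to 10427 in WI+CS6h-C. EDN1 and NDRG1 (difference -0.74, adjusted p = 0.0239) were the falls among 31 hypoxia targets, none of which rose. NDRG1, a hypoxia-induced gene of stress and growth arrest, lost its call without WI-C 3, WI-C 4, WI-C 5, WI+CS6h-C 1 or WI+CS6h-C 5 (adjusted p of 0.0596, 0.0676, 0.0586, 0.0582 and 0.0541).

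Blood in the tissue was examined with erythrocyte markers, since only the stored kidneys were flushed. None of 12 was called. HBB, the beta chain of hemoglobin, had signals of 4.61, 3.56, 3.74, 4.58 and 4.50 in WI-C and 0.40, 0.07, 3.89, 1.72 and 4.84 in WI+CS6h-C. The stored kidneys fell into low and high values rather than moving together, and the difference was -2.01 (SE 1.06, adjusted p = 0.396). The summed signal of the 12 markers was 504 to 678 in WI-C and 457 to 705 in WI+CS6h-C, overlapping ranges. None of 18 fibroblast, smooth muscle and matrix genes and none of 9 podocyte genes was called, with CNN1 (0.69, adjusted p = 0.195) and WT1 (0.41, adjusted p = 0.243) nearest by the brightest identifier, although ENSSSCT00000031509, 1 of 4 identifiers of the podocyte gene NES, gave 1.17 with a call (adjusted p = 0.00767).

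Heat shock genes rose where called, 2 of 30 with 25 of 30 differences above 0. HSPH1 (NM_001097504), a co-chaperone of HSP70, had signals of 8.66, 8.67, 8.55, 8.64 and 8.57 in WI-C and 9.33, 9.05, 9.42, 9.37 and 9.26 in WI+CS6h-C, a difference of 0.67 (SE 0.09, adjusted p = 0.000872) without overlap. CHORDC1, a partner of HSP90, rose by 0.62 (adjusted p = 0.0159), and lost its call without WI-C 3 (adjusted p = 0.0516) or WI+CS6h-C 1 (adjusted p = 0.0507). TMX4, a thioredoxin-like protein of the endoplasmic reticulum, rose by 0.74 (adjusted p = 0.00998) and was the only call among 20 genes of endoplasmic reticulum stress. Of 9 cold-inducible and clock genes none was called, and the splicing factor SRSF5 came nearest with -0.66 (adjusted p = 0.0613).

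In the list of growth factor and BMP signaling, 3 of 43 genes rose, none fell and 40 were not called, with a median of 0.08. ID2, an inhibitor of DNA binding, rose by 0.68 (SE 0.14, adjusted p = 0.0148) with all 5 probes between 0.65 and 0.73. SMAD6, an inhibitory SMAD, rose by 0.51 (adjusted p = 0.0134), close to the size limit, and fell to 0.45 to 0.49 without WI-C 1, WI-C 2, WI+CS6h-C 3 or WI+CS6h-C 4, which ended its call. ID1 rose by 0.61 (adjusted p = 0.0418) with overlap and kept its call in 2 of the 10 fits (up to 0.107 without WI-C 4). Other single calls were LEO1 (0.71, adjusted p = 0.0156), a factor of transcription elongation and the only call among 26 genes of RNA processing, and PNPLA2 (-1.03, adjusted p = 0.02), the lipase that starts triglyceride breakdown. PNPLA2 lost its call without WI-C 2, WI-C 3 or WI+CS6h-C 1 (adjusted p of 0.0504, 0.0658 and 0.0511), and it was the only call among 17 adipocyte genes, whose summed signals overlapped (9217 to 11897 and 8453 to 12738).

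Several lists of general cell functions had no call. They were 52 ribosomal protein genes (median -0.01), 24 proteasome genes (0.04), 20 genes of cell division (0.44), 5 histone genes (0.36) and 29 genes of cholesterol and lipid synthesis (0.28), of which 26 had differences above 0. The members with the smallest p were RPL14 (-0.35, adjusted p = 0.074), PSMB9 (-0.49, adjusted p = 0.135), AURKB (0.52, adjusted p = 0.0765), HIST1H2BD (0.36, adjusted p = 0.0579) and ACACA (0.55, adjusted p = 0.136). For AURKB the brightest of 3 probes gave -0.02 and the others 0.82 and 0.76. Outside the lists, NNAT, an imprinted membrane protein, fell by 1.90 (adjusted p = 0.0103), CALHM2, a channel protein, by 1.46 (adjusted p = 0.0194), GNAT1, a G protein subunit of rods, by 1.37 (adjusted p = 0.0161) and MAB21L3 by 1.27 (adjusted p = 0.00231), the last well above background on 3 of the 5 stored kidneys. NNAT (-0.38), GNAT1 (-0.32) and MAB21L3 (-0.14) lost their calls under normexp background correction. CALHM2 lost its call without WI-C 5 (adjusted p = 0.0531) or WI+CS6h-C 3 (adjusted p = 0.0555).

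The level before storage was set beside the other cortex groups. WI-C versus Ctl-C, which shares the WI-C arrays, had 34 calls (0.0946%), and of the genes named here FOS and EGR1 were among them. The mean FOS signal was 9.65 ± 0.38 (SD, n = 5) in control cortex, 10.92 ± 0.11 after warm ischemia, and 12.26 ± 0.47 and 12.20 ± 0.36 after 6 h and 24 h of storage. For EGR1 the means were 3.11 ± 0.62, 4.45 ± 0.25, 5.72 ± 0.21 and 5.59 ± 0.33 in the same order. Both genes were thus called at either step, with WI-C above Ctl-C by 1.27 (adjusted p = 0.0223) for FOS and by 1.34 (adjusted p = 0.028) for EGR1.

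**Figure D4:**
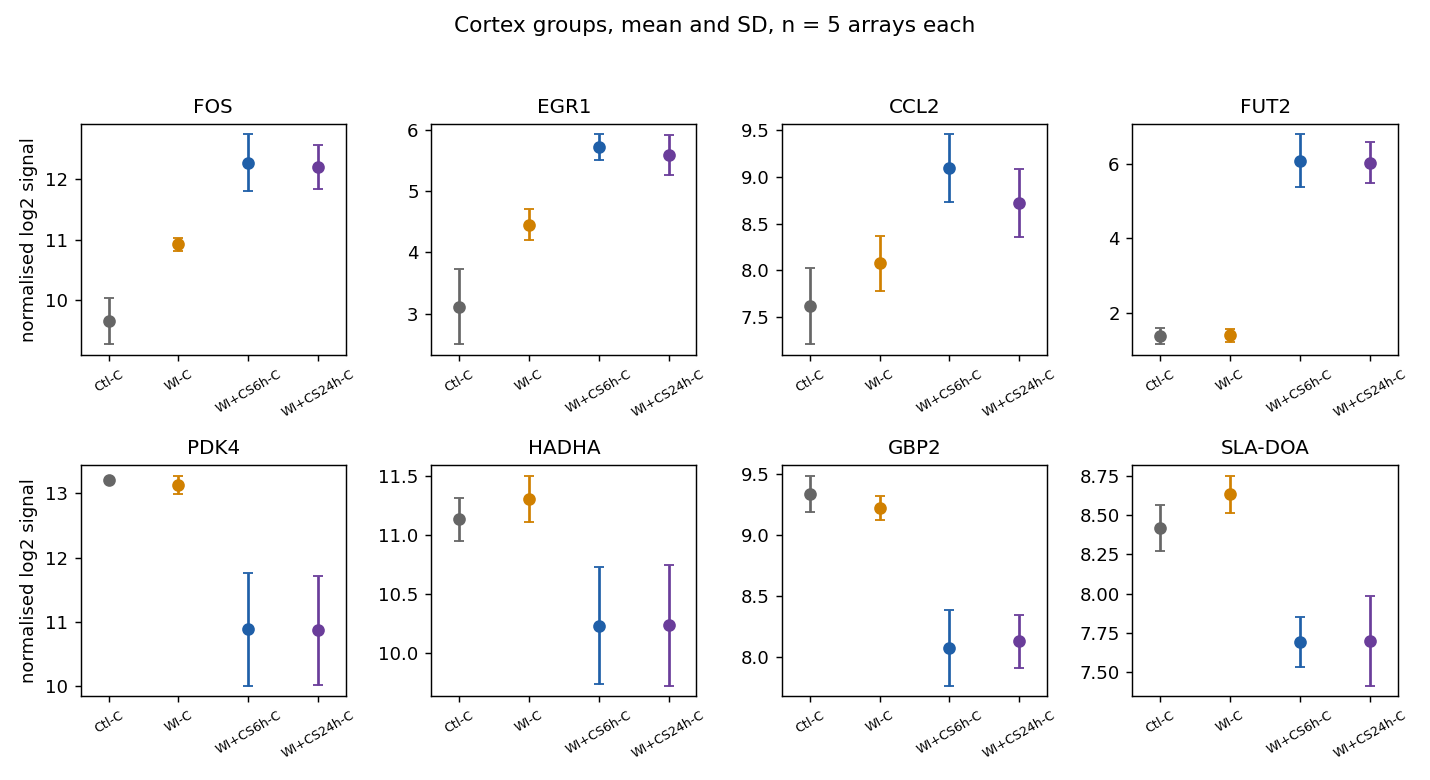
Normalised log2 signal of 8 genes in the 4 cortex groups, as mean and SD of 5 arrays each. FOS and EGR1 stand higher in WI-C than in Ctl-C and higher again after storage, whereas FUT2, PDK4, HADHA, GBP2 and SLA-DOA differ by at most 0.21 between the means of Ctl-C and WI-C and move at the storage step.

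The other 69 called identifiers were not called between Ctl-C and WI-C. FUT2 measured 1.39 ± 0.22 in Ctl-C and 1.42 ± 0.17 in WI-C, PDK4 13.20 ± 0.03 and 13.14 ± 0.14, HADHA 11.13 ± 0.19 and 11.30 ± 0.20, and GBP2 9.33 ± 0.15 and 9.22 ± 0.10. AQP3 stood higher in WI-C (8.76 ± 0.22) than in Ctl-C (8.30 ± 0.28) without a call (difference 0.46, adjusted p = 0.66), and at 8.13 ± 0.23 after storage it was near its control level. HMOX2 had the same order, at 10.22 ± 0.29, 9.85 ± 0.10 and 9.69 ± 0.16. WI+CS6h-C versus Ctl-C was not called for HMOX2 (-0.16, adjusted p = 0.441) or AQP3 (-0.17, adjusted p = 0.509). Nor was it for CPT2 (-0.64, adjusted p = 0.0802), CYP3A46, CYP3A39, PVALB and AQP9, whereas FUT2, PDK4 and HADHA were called there. For CCL2 the means were 7.62 ± 0.41 in control cortex, 8.08 ± 0.29 after warm ischemia, and 9.09 ± 0.36 and 8.72 ± 0.36 after 6 h and 24 h of storage.

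Longer storage was compared directly. Between WI+CS24h-C and WI+CS6h-C, which the labels describe as taken from the same kidneys, limma called 0 of 35939 genes, with 1119 (3.11%) at an unadjusted p under 0.05. The labels do not state that the sample numbers match kidneys across the times (r of same-numbered arrays -0.42 to 0.62, with 2 of 5 best matched by their own number), so the fit had no kidney term. For FUT2 the later level differed by -0.05 (SE 0.28), for HADHA by 0.00 (SE 0.23), for PDK4 by -0.02 (SE 0.37), for FOS by -0.06 (SE 0.22) and for FCN2 by -0.11 (SE 0.47). The largest differences among the 71 called identifiers were those of C8G, at 0.41 (SE 0.23), and CCL2, at -0.38 (SE 0.22). A missing call at 5 kidneys does not show that the levels were equal. WI+CS24h-C versus WI-C, which shares the WI-C arrays with the step examined, had 433 calls (1.20%), 57 of the 71 identifiers among them.

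In the corticomedullary junction the same step, WI+CS6h-CMJ versus WI-CMJ, had 1000 calls (2.78%). The difference between the tissues was tested as an interaction over all 40 arrays, and limma called 0 of 35934 genes, with 1783 (4.96%) at an unadjusted p under 0.05. FUT2 differed by 4.10 in CMJ, HADHA by -1.08, PDK4 by -2.31, CDO1 by -3.46 and SLA-DOA by -1.13, all called there. In contrast FOS differed by 0.39 (adjusted p = 0.468), EGR1 by 0.02 (adjusted p = 0.987), KLF4 by -0.20 (adjusted p = 0.72) and FCN2 by 1.13 (adjusted p = 0.265) in CMJ. The interaction for these 4 was 0.96 (SE 0.34, adjusted p = 0.9), 1.25 (SE 0.35, adjusted p = 0.89), 0.96 (SE 0.28, adjusted p = 0.89) and 1.90 (SE 0.71, adjusted p = 0.939), so none was shown to differ between tissues. In CMJ, EGR1 already measured 5.75 and FOS 12.40 in WI-CMJ, beside 4.45 and 10.92 in WI-C.

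**Figure D5:**
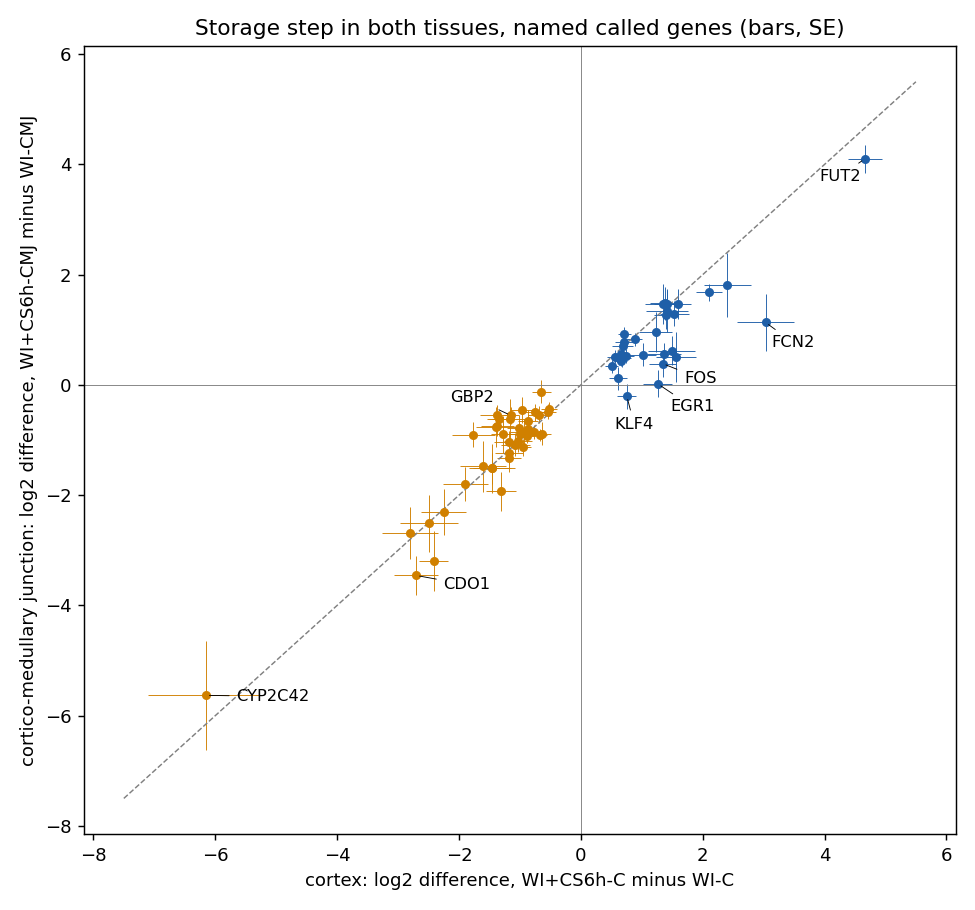
Log2 difference between 6 h of storage and warm ischemia alone in cortex (x axis) and corticomedullary junction (y axis) for the 71 called identifiers named by rule, with standard errors as bars and the line of equality dashed. FUT2 and CYP2C42 lie at the ends near the line, and EGR1, KLF4, FOS and FCN2 lie below it, with no interaction called.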

How the data were processed

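Cortex and corticomedullary junction RNA of 15 kidneys was hybridised to 40 single-colour Agilent porcine arrays, 4 to a slide. The deposited scanner files hold spot intensity values that the authors extracted with Agilent Feature Extraction 11.5.1.1, background-subtracted by that software (upstream versions are those of the submitters' processing notes). The deposited series table holds log2 values that the authors normalized by quantiles within each condition with limma in R 2.15.2, and it served only as an alternative.

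From the scanner files, log2 of the processed signal of the 43803 non-control spots was quantile normalized over all 40 arrays and averaged by transcript identifier (35955), leaving out spots that the scanner software marked as outliers. A symbol was available for 8855 identifiers, 3067 of them through the RefSeq table of assembly Sscrofa11.1, 4985 from the array file and 803 through another accession. Genes were tested with limma 3.58.1 in R 4.3.3 on the 20 cortex arrays with 4 group terms, and the tissue difference on 40 arrays with 8 groups, with Benjamini-Hochberg adjustment. The named genes were FCN2, HADHA and AQP3, the 15 largest separated rises and falls with a symbol, and up to 4 called members (otherwise the member with the smallest p) of each of 40 gene lists, 84 identifiers in all. The step, the named genes and the lists were chosen with earlier results of these data known. Scripts were tested on simulated data.

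WI-C and WI+CS6h-C arrays of the same number came from different kidneys, whereas the 6 h and 24 h samples came from the same kidneys per the labels. Cortex and junction samples of the same number deviated together (r = 0.115 to 0.411 in WI and 0.164 to 0.625 in WI+CS6h), which is why a kidney block was added as an alternative. That block also joined 6 h and 24 h arrays of the same number, which the labels do not tie to the same kidney. In fits on cortex arrays alone this was the only pairing it made. The tissue comparison itself had no kidney term. Alternatives changed the scaling, the background correction, the filter on dim genes, the summary of probes, the blocks and the arrays included. P-values measure the spread between arrays within groups, pooled over all groups of a fit. Arrays of the same kidneys, at 6 h and 24 h or in both tissues, entered the main fits as independent. The spread also holds differences between slides and arrays, and the number of arrays limits the precision. Probe positions in a genome were not used here.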

Additional observations from a re-analysis of the deposited data

Results flagged for a closer look

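Over the 168 groups of 5 arrays examined for the named genes, 10 held an array whose gap to its neighbour passed Dixon's limit of 0.71 of the group's range, which chance gives in about 1 in 20 groups. WI+CS6h-C 5 was the array in 5 of these 10. It measured 3.87 for ANGPTL1 against 4.91 to 5.27 on the other stored kidneys, 8.34 for BCL6 against 9.41 to 9.75, 9.79 for BTG2 against 10.83 to 11.24, 11.20 for ID2 against 11.64 to 11.81, and 10.93 for ID1 against 11.57 to 11.75. All 5 genes were among those higher after storage, so leaving out this low array had to enlarge each difference. It became 1.81 for ANGPTL1, 1.68 for BCL6, 1.63 for BTG2, 0.79 for ID2 and 0.76 for ID1. The array had 57.0% of its spots well above background, and WI+CS6h-C 3, which stood apart for none of these genes, had 57.2%.

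In the WI-C group, WI-C 4 measured 2.30 for CYP2C42 against 7.80 to 9.27 on the others, and WI-C 2 measured 8.71 for GSTA2 against 10.92 to 11.40. WI-C 3 measured 9.66 for CXCL10 against 10.38 to 10.46 and 10.63 for ABCC2 against 10.97 to 11.09. WI-C 1 measured 12.77 for CYP4A21 against 12.997 to 13.07.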

How the results depend on the processing

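The 692 calls of the storage step became 1923 with quantile normalization by group, 361 in the deposited table, 149 with only the 2 groups in the fit, 143 with normexp background correction and 7 with slide as a fixed block. Within scan day 1 there were 16 and within scan day 2 there were 5, with fewer arrays in each. Leaving out an array gave 381 to 1195. The other settings gave 539 to 866, namely 75th percentile scaling (539), the scan day block (586), quantile normalization by tissue (698), a kidney block (705) and outlier spots kept (687), both chosen after the data were seen, a fit per probe (722), slide as a random block (743), the share of spots above background as covariate (754) and a filter on dim genes (866). The replicate block gave 690 calls, 582 of them shared with the 692. WI-C and WI+CS6h-C share only a number (r of same-numbered arrays -0.66 to 0.66, 2 of 5 best matched by their own number), and the block ended 5 of the 71 named calls.

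The interaction with tissue and the comparison of 24 h with 6 h of storage each had 0 calls, which became 522 and 1152 with quantile normalization by group and 0 to 1 when an array was left out. The further settings that were run, the replicate block and the kidney block included, gave 0 calls, with slide as a fixed block, the scan day block and the share of spots above background run for the interaction only. For 24 h against 6 h both the replicate and the kidney block pair arrays by number, so the true pairing of kidneys was not tested. Of the named genes, CKM on NM_001129949 (-0.0110) and AURKB (-0.0233) changed sign by their brightest probe, as did OAS2 (0.0809), WT1 (-0.128) and PSMB9 (0.00235) within slide 9 and SRSF5 (0.0680) within slide 4. Of these, AURKB, WT1, PSMB9 and SRSF5 had no call. Of the 71 named calls, 45 held in all 10 fits with an array left out and 26 were lost in at least 1. The causes were not tested. EDN1, ARG2, CYP2C42, AQP9, HBB, MAB21L3 and 2 of 3 probes of FUT2 and RHOV lie near background in at least 1 group, which limits the size of their differences.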
